A study of Homo sapiens with 4 samples.

Results

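The subject is 34 genes of Wnt signalling, chosen by name as components of the pathway or as its targets in the colon, of 53617 genes listed in the series. They were measured in HT29 cells, a line established from a human colon adenocarcinoma in which the APC tumour suppressor is truncated, in a study that asked which mRNAs differ when miR-23b is raised or blocked. The 4 groups were HT29 cells transfected with a miR-23b precursor (a synthetic RNA that raises the microRNA), cells given the precursor's control, cells transfected with an antimir against miR-23b (an oligonucleotide that blocks it), and cells given the antimir's control. All were transfected at 50 nM with Lipofectamine 2000, had fresh medium after 24 h and gave RNA after 48 h. Each group held 1 library, so no value has a replicate error, no test between groups was possible, and every comparison is between 2 libraries.

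In canonical Wnt signalling, a secreted Wnt protein binds a Frizzled receptor with LRP5 or LRP6, and Dishevelled proteins then stop the destruction complex of Axin, APC and the kinases GSK3B and CK1 from marking beta-catenin for degradation. Beta-catenin then binds TCF and LEF factors on DNA and turns on target genes. In the intestinal crypt this keeps stem cells dividing, and in most colon cancers loss of APC leaves the pathway active without a ligand.

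The microRNA under study recognises its targets through its seed, bases 2 to 8, shown in capitals. Its paralogue miR-23a-3p has the same seed, so a site for one is a site for the other. The mature sequences are from RefSeq (GRCh38.p14).
hsa-miR-23b-3p: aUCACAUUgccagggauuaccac
hsa-miR-23a-3p: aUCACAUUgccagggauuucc

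A complement to that seed, AATGTGA, lay in the longest 3' UTR of 10 of the 34 genes (29.4%), against 18.4% of 19145 protein-coding genes in GENCODE 29. The median length of that UTR was 1235 bases for the 34 genes and 1103 bases for all. The genes with a site were LRP5, LGR4, RNF43, ZNRF3, DVL2, NKD1, GSK3B, EPHB2, EPHB3 and PROX1. The sites followed by an A, the longer form of a seed match, are shown here because the results below return to their genes, with the seed complement in capitals.
LRP5, chromosome 11: aaaaacatgagaAATGTGAactgtgatgg
RNF43, chromosome 17: tatcccatttggAATGTGAatgtggtggc
GSK3B, chromosome 3: ttgtagttaaatAATGTGAactgtaacag
EPHB2, chromosome 1, site 1: ttcagaaaaacaAATGTGAaggggagaga
EPHB2, chromosome 1, site 2: tttcccaaaataAATGTGAattgtaaaaa

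TCF and LEF factors bind a short core, searched here as CTTTGAT and CTTTGAA on both strands in RefSeq promoter windows from 250 bases before to 50 bases after the start. The windows covered 24 of the 34 genes, and 2 of those genes held a match. Some genes had more than 1 window, and counted by window 2 of 34 (5.88%) held a match. Of all 35116 windows, 6.86% held at least 1 match and 0.0256% (9 windows) held 3 or more. SP5 held 3 and DKK1 held 1, all before the start, and the 250 bases before each start are shown with the matches in capitals. A match is a match of letters and no more.
SP5, GRCh38.p14 chr2:170715087-170715336, plus strand: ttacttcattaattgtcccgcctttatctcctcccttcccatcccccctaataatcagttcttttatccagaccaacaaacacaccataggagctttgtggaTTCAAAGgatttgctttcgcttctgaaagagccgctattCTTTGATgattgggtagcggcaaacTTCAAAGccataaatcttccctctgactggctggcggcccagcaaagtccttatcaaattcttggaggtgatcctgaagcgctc
DKK1, GRCh38.p14 chr10:52314031-52314280, plus strand: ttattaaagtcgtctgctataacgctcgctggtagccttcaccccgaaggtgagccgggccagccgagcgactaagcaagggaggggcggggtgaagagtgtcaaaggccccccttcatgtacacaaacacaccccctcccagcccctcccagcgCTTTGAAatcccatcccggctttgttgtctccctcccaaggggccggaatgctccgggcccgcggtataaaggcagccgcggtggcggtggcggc

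The values are FPKM, the authors' read density per kilobase of transcript, scaled to the size of the library, given per transcript and summed here per gene. The 4 libraries held 13908 to 16809 genes at an FPKM of at least 1, and the 10 most abundant genes took 37.1% to 46.4% of all FPKM. The MIR23B and MIR23A genes were listed at 0 in all 4 libraries, so the files do not show the change in the microRNA itself. Of 12 fixed markers of colon epithelium, 10 averaged 1 FPKM or more in the precursor pair, led by KRT8 at 6798 FPKM with the precursor and 6665 with its control. Markers of fibroblasts, immune cells and endothelium summed to between 0 and 9.26 FPKM per library and list, with COL3A1 and KDR listed at 0 throughout. No fibroblast or endothelium marker averaged 1 FPKM or more in either pair. Of 6 immune markers, 3 did so in each pair (CD68, CD14 and ITGAM). CD68 was the highest, at 5.59 FPKM with the precursor and 4.18 with its control. The depth of the libraries is unknown, because the files hold no read counts.

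Differences are given as log2(FPKM + 1) of the treated library minus that of its control, centred on the median over all genes that averaged 1 FPKM or more in the 2 libraries. Below, a treated library and its control are called a pair, and the centred difference stands in brackets after its values. Of the 34 genes, 28 reached that level in both pairs. In the precursor library 21 of the 28 lay above 0 and 7 below, with a median of 0.10, against 51.3% of protein-coding genes above 0 and 48.7% below, with a median of 0.0054. In the antimir library 9 lay above 0 and 19 below, with a median of -0.05, against 49.5% and 50.5% of protein-coding genes and a median of -0.0023. None of the 28 was 1.5-fold apart in either comparison on this scale, whose pseudocount of 1 understates the change of low genes. With a pseudocount of 0.1, PROX1 was past it in the precursor library (0.80). In the precursor comparison 6.68% of 16982 genes of any kind and 1.15% of 11346 protein-coding genes were that far apart. In the antimir comparison 7.97% of 14190 genes and 2.63% of 11060 protein-coding genes were, so a count of 0 among 28 is near the protein-coding background in both. At a smaller step, 0.32 on the log2 scale, 5 genes were higher in the precursor library and 0 lower, against 7.14% and 7.85% of all genes and 3.94% and 3.99% of protein-coding genes. The 5 were AXIN2, PROX1, NKD2, BCL9L and TCF7. With transcripts under 1000 bases left out, BCL9L stayed past that step (0.49). AXIN2 (0.31), TCF7 (0.30), PROX1 (0.25) and NKD2 (0.01) did not. In the antimir library NKD2, PORCN and TCF7L2 were that much higher and SP5 and BCL9L lower, against 10.8% and 8.25% of all genes and 6.73% and 5.39% of protein-coding genes. Of these, NKD2 (0.77) and BCL9L (-0.65) stayed past the step with those transcripts left out. PORCN (-0.11), TCF7L2 (-0.12) and SP5 (0.01) did not.

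**Figure D1:**
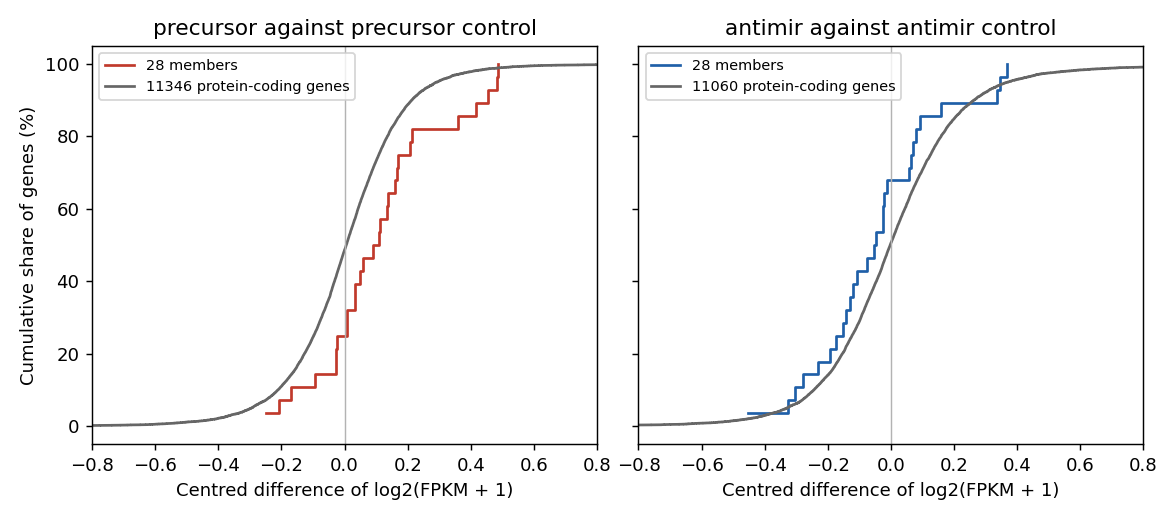
Cumulative share of genes (vertical axis, percent) by centred difference of log2(FPKM + 1) (horizontal axis), for the 28 measured Wnt genes (coloured) and all measured protein-coding genes (grey), precursor against precursor control on the left and antimir against antimir control on the right. The coloured curve lies to the right of the grey one over most of the left panel (medians 0.10 and 0.0054) and to the left of it over most of the right panel (median -0.05), and all 28 genes lie between -0.45 and 0.49.

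A lean in the same directions was present in 1 list outside the pathway, the colon epithelium markers. Of the colon epithelium markers, 10 of 10 measured lay above 0 in the precursor library (median 0.11), and 6 of 9 lay below 0 in the antimir library (median -0.08). With transcripts under 1000 bases left out, KRT20 (-0.06) and KRT8 (-0.0035) lay below 0 with the precursor, and CDX2 (0.05) above 0 with the antimir. The other measured markers kept their sign. Summed over all 12 markers, the list stood at 11957 FPKM with the precursor against 11353 in its control, and at 5457 FPKM with the antimir against 5658 in its control. Within the antimir sum, KRT18 was at 1328 FPKM against 1526 in the control, and KRT8 at 2410 against 2346. CDX1 and CDH17, markers of intestinal identity, stayed under a mean of 1 FPKM in both tables. CDX2, another such marker, was at 2.87 FPKM with the precursor against 2.42 with its control. LGALS4 was at 391 FPKM with the precursor against 381 with its control. The part of these markers in the lean of the Wnt genes was not tested. In bulk RNA, fewer cells with a transcript and less of it per cell cannot be told apart.

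Both genes of the machinery that makes Wnt ligands were expressed. WLS, which carries Wnt proteins to the cell surface, was at 134 FPKM with the precursor against 131 in its control (0.01), and at 100.2 FPKM with the antimir against 114 in its control (-0.14). PORCN, the enzyme that attaches the lipid Wnt proteins need for secretion, was at 5.27 FPKM with the precursor against 4.53 with its control (0.16). PORCN was at 4.74 FPKM with the antimir against 3.64 with its control (0.35), but that value turned to -0.11 when transcripts under 1000 bases were left out and to -0.55 with the most abundant transcript alone. Among the ligands themselves, 4 of 19 were measured in each pair. WNT11, a ligand known mainly for signalling without beta-catenin, was at 8.23 FPKM with the precursor against 6.03 with its control (0.37) and 5.51 FPKM with the antimir against 6.43 with its control (-0.15). WNT7B was at 6.86 FPKM with the precursor against 5.70 with its control (0.21) and WNT2B at 0.949 FPKM with the precursor against 1.36 with its control (-0.30). In the antimir pair WNT2B was at 1.44 FPKM with the antimir against 1.23 with its control (0.17) and WNT10A at 7.10 FPKM with the antimir against 6.66 with its control (0.12, or -0.01 without transcripts under 1000 bases).

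The secreted inhibitors were DKK1, DKK4 and NOTUM, and DKK1 alone was measured. DKK1, which blocks LRP5 and LRP6 and is itself a Wnt target, was at 48.3 FPKM with the precursor against 55.0 in its control (-0.21). It was at 39.7 FPKM with the antimir against 36.4 with its control (0.16). It and TCF7L2 were the only genes of the 28 below 0 in the precursor library and above 0 in the antimir library, and both signs of DKK1 held under each alternative tried. Its 1790-base coding transcript showed the same order, at 11.5 FPKM with the precursor against 14.0 with its control and 14.1 FPKM with the antimir against 12.1 with its control, and the authors' deposited table called none of its 4 transcripts in either comparison. NOTUM, an enzyme that strips the lipid from Wnt proteins, stayed at 0.581 FPKM or less in all 4 libraries, and DKK4 was listed at 0 in all but the precursor library, where it was at 0.00152 FPKM.

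LRP5, a co-receptor, was at 81.3 FPKM with the precursor against 73.9 with its control (0.11) and at 49.5 FPKM with the antimir against 47.6 with its control (0.09). Its antimir value turned to -0.10 without transcripts under 1000 bases and to -0.08 with the most abundant transcript alone. LRP6, its close relative, was at 17.7 FPKM with the precursor against 16.1 with its control (0.11) and at 10.6 FPKM with the antimir against 13.7 with its control (-0.30). Most of that last difference lay in short transcripts, since it was -0.07 without those under 1000 bases. LGR4, the receptor for R-spondins, was at 49.2 FPKM with the precursor against 47.2 with its control (0.03) and at 37.0 FPKM with the antimir against 39.5 with its control (-0.05, or 0.08 without transcripts under 1000 bases). RNF43 and ZNRF3, ubiquitin ligases that remove Frizzled receptors from the surface and are induced by Wnt signalling, differed by at most 0.09 in size in either comparison with all transcripts summed. RNF43 was at 28.9 FPKM with the precursor against 30.4 with its control (-0.09) and at 28.8 FPKM with the antimir against 30.1 with its control (-0.02), and ZNRF3 was at 14.9 FPKM with the precursor against 14.1 with its control (0.06) and at 14.4 FPKM with the antimir against 15.1 with its control (-0.03). In the precursor library the authors' deposited table called 1 RNF43 transcript lower, at 0.246 FPKM against 0.841 in the control (q = 7.87e-07). It called 2 ZNRF3 transcripts lower, at 0 FPKM against 0.503 (q = 6.71e-06) and at 0.806 FPKM against 1.26 (q = 0.00742). The second is the one whose UTR was searched and held the seed site, and the UTR of the first was not searched. With the antimir the second was also below its control, at 0.928 FPKM against 1.11, without a call. An entry of unknown length held 84.6% of ZNRF3 FPKM in the precursor pair.

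Of the cytoplasmic relay, the Dishevelled genes DVL1, DVL2 and DVL3 lay between -0.03 and 0.17 in the precursor library and between -0.17 and 0.06 in the antimir library. DVL1 was at 21.6 FPKM with the precursor against 18.8 with its control (0.17) and at 19.6 FPKM with the antimir against 19.2 with its control (0.06). DVL3 was at 28.04 FPKM with the precursor against 25.1 with its control (0.13) and at 16.1 FPKM with the antimir against 17.9 with its control (-0.11). With the most abundant DVL3 transcript alone both differences were -0.38, and the authors' deposited table called that transcript lower in the precursor library (q = 0.0286). DVL2, measured from 1 transcript and holding a seed site, was at 6.44 FPKM with the precursor against 6.46 with its control (-0.03) and at 5.88 FPKM with the antimir against 6.97 with its control (-0.17). NKD2, an inhibitor that binds Dishevelled, was above 0 in both comparisons, at 4.72 FPKM with the precursor against 3.11 with its control (0.45) and 5.45 FPKM with the antimir against 4.13 with its control (0.37). Both depended on which transcripts were counted: without those under 1000 bases, NKD2 was at 2.85 FPKM with the precursor against 2.76 with its control (0.01) and at 2.27 FPKM with the antimir against 0.958 with its control (0.77), the second past 1.5-fold. That second sum includes an entry of unknown length, at 0.799 FPKM with the antimir and listed at 0 in its control. NKD1, its relative and a Wnt target, stayed at 0.558 FPKM or less.

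All 5 genes of the destruction complex lay above 0 in the precursor library and all 5 below 0 in the antimir library, though most by very little and not under every setting: without transcripts under 1000 bases, AXIN1 lay at -0.10 in the precursor library and CSNK1A1 at 0.01 in the antimir library, and with the most abundant transcript alone APC, AXIN2 and CSNK1A1 lay at 0.26, 0.03 and 0.04 in the antimir library. AXIN2 (listed at hg19 chr17:63524685-63557765), the scaffold that is induced by the signal it restrains, was among the genes furthest from their control in the precursor library, at 22.6 FPKM with the precursor against 15.6 with its control (0.49). AXIN2 was at 16.5 FPKM with the antimir against 17.3 with its control (-0.02). Of the difference in AXIN2, 2.78 FPKM came from a 621-base transcript listed at 0 in the other 3 libraries, and without it AXIN2 was at 19.8 FPKM with the precursor against 15.6 with its control (0.31). The authors' deposited table called that transcript higher (q = 9.98e-05) and also the 2541-base coding transcript, at 7.16 FPKM with the precursor against 5.24 with its control (q = 0.0173), while the 4259-base transcript stood at 12.7 FPKM with the precursor against 10.3 with its control, without a call.

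AXIN1, the constitutive scaffold, was at 31.8 FPKM with the precursor against 31.1 with its control (0.01) and at 26.5 FPKM with the antimir against 32.1 with its control (-0.23). GSK3B, the kinase that marks beta-catenin, is 1 of the genes with a seed site. It was at 29.4 FPKM with the precursor against 24.9 with its control (0.21). With the antimir it was at 20.2 FPKM against 21.98 with its control (-0.08). Without transcripts under 1000 bases GSK3B lay at 0.13 with the precursor and -0.18 with the antimir. Its most abundant transcript, the one that held the site, gave 0.07 and -0.17. APC was at 14.2 FPKM with the precursor against 13.5 with its control (0.05) and at 9.61 FPKM with the antimir against 10.9 with its control (-0.13). The authors' deposited table called its 10701-base coding transcript lower in the precursor library, at 0.466 FPKM against 1.02 in the control (q = 6.23e-08). CSNK1A1, the casein kinase that phosphorylates beta-catenin first, had the highest FPKM of the 34 genes in all 4 libraries, at 139 FPKM with the precursor against 134 with its control (0.03) and at 122 FPKM with the antimir against 126 with its control (-0.01).

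Beta-catenin itself was near its control in both comparisons. CTNNB1 was at 111 FPKM with the precursor against 102 in its control (0.09), and at 75.2 FPKM with the antimir against 74.2 with its control (0.06). Of its 15 transcripts, the authors' deposited table called 1 higher (5.74 FPKM with the precursor against 3.30 with its control, q = 9.00e-06) and 1 lower (4.09 FPKM with the precursor against 6.99 with its control, q = 0.0405). The co-activators BCL9L and BCL9 join beta-catenin to transcription. BCL9L (listed at hg19 chr11:118754475-118829269) was at 41.4 FPKM with the precursor against 30.3 with its control (0.42) and at 23.1 FPKM with the antimir against 29.995 with its control (-0.32). Both became wider without transcripts under 1000 bases, at 19.9 FPKM with the precursor against 13.6 with its control (0.49) and at 10.04 FPKM with the antimir against 16.6 with its control (-0.65), which is past 1.5-fold. These sums keep entries of unknown length. The transcript ENST00000526514.1, 1 of them, was at 5.69 FPKM with the precursor against 3.17 with its control. It was at 1.53 FPKM with the antimir against 5.45 with its control. With the most abundant transcript alone the antimir difference turned to 0.13. BCL9, its paralogue, was at 8.31 FPKM with the precursor against 9.32 with its control (-0.17) and at 6.87 FPKM with the antimir against 8.24 with its control (-0.19). Its precursor value turned to 0.04 without transcripts under 1000 bases and to 0.03 with the most abundant transcript alone.

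Of the DNA-binding partners, TCF7L2 and TCF7 were expressed, and LEF1 and TCF7L1 stayed at 0.391 FPKM or less. TCF7 was at 30.1 FPKM with the precursor against 22.8 in its control (0.36), and at 17.6 FPKM with the antimir against 19.7 with its control (-0.12). Its precursor value stayed above 0 under each alternative, from 0.20 to 0.38. The authors' deposited table called 2 TCF7 transcripts higher there. An entry of unknown length was at 1.19 FPKM with the precursor and listed at 0 in every other library. The other, of 570 bases, was at 2.68 FPKM with the precursor against 0.764 with its control. TCF7L2 (listed at hg19 chr10:114710009-114927437), the main TCF of the intestinal epithelium, was at 62.7 FPKM in both libraries of the precursor table and at 48.1 FPKM with the antimir against 38.9 with its control (0.34).

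Much of TCF7L2 lay in 1 short transcript. This 182-base entry held 55.4% of the gene's FPKM in the precursor pair and 42.7% in the antimir pair, where it was at 24.1 FPKM in the antimir library against 13.0 in the control. The TCF7L2 transcripts of 1000 bases or more, or of unknown length, summed to 11.8 FPKM with the precursor against 10.7 with its control (0.10) and to 10.1 FPKM with the antimir against 11.3 with its control (-0.12). The first sum includes an entry of unknown length, at 1.75 FPKM with the precursor against 0.290 with its control. With transcripts under 1000 bases left out, TCF7L2 and TCF7 stood at similar levels, since TCF7 was then at 12.8 FPKM with the precursor against 10.05 with its control (0.30) and at 12.2 FPKM with the antimir against 12.3 with its control (0.01). The first TCF7 sum includes an entry of unknown length, at 1.19 FPKM with the precursor and listed at 0 in its control. How far the authors' division of reads among transcripts bears on these values was not tested.

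**Figure D2:**
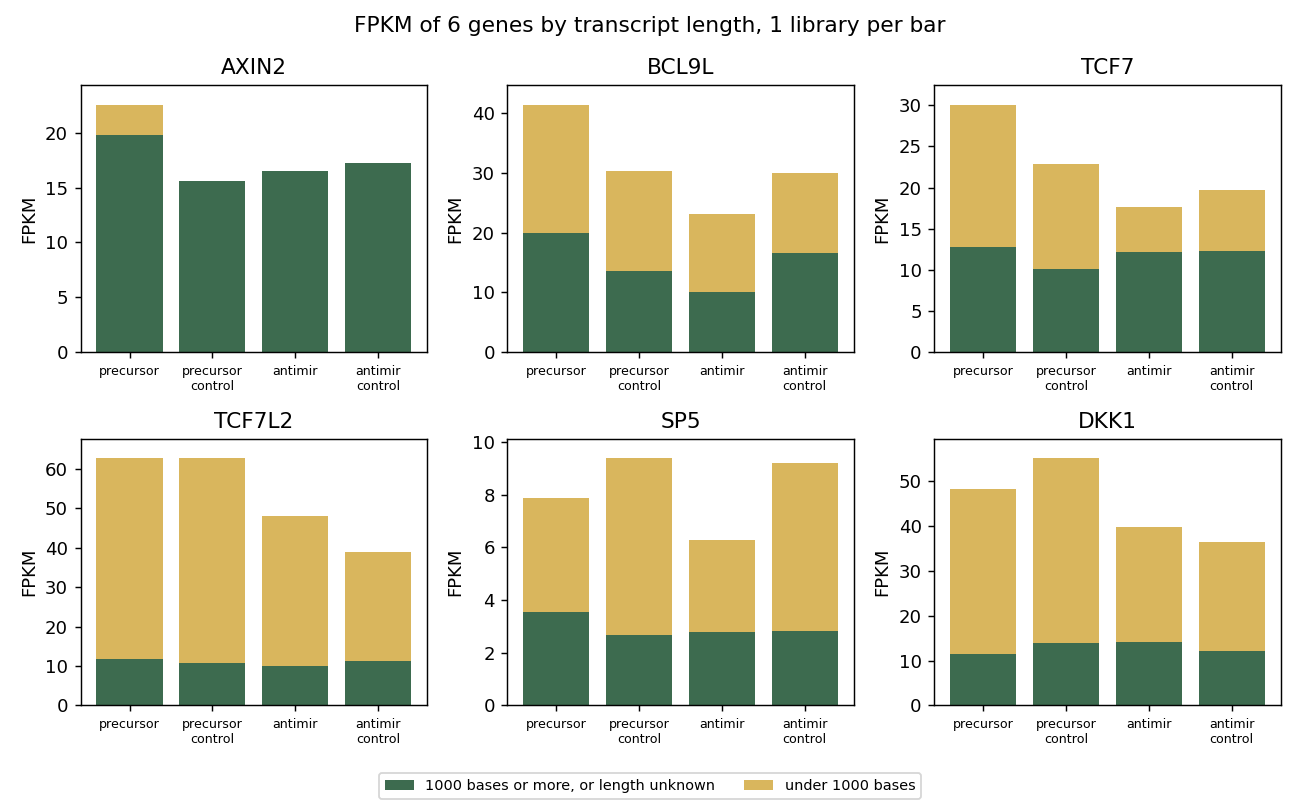
FPKM (vertical axis) of 6 genes in the 4 libraries, 1 library per bar, split into transcripts of 1000 bases or more or of unknown length (green) and transcripts under 1000 bases (yellow). In TCF7L2, SP5 and DKK1 the yellow part is the larger one in every library, and the green part of SP5 (3.53 in the precursor library against 2.68 in its control) runs against the total (7.87 in the precursor library against 9.38 in its control).

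SP5 (listed at hg19 chr2:171571861-171574588), a transcription factor induced directly by Wnt and the gene whose promoter held 3 TCF core matches, showed the same dependence. Its sum was at 7.87 FPKM with the precursor against 9.38 in its control (-0.25), and at 6.27 FPKM with the antimir against 9.21 with its control (-0.45), the lowest value there. A 257-base noncoding transcript made up 64.0% and 63.6% of these sums, at 4.34 FPKM with the precursor against 6.69 with its control and at 3.48 FPKM with the antimir against 6.37 with its control. The 2033-base coding transcript was at 3.53 FPKM with the precursor against 2.68 with its control (0.28) and at 2.79 FPKM with the antimir against 2.84 with its control (0.01). The authors' deposited table called neither transcript in either comparison.

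MYC, the growth-promoting transcription factor, was at 92.5 FPKM with the precursor against 82.6 in its control (0.14), and at 62.4 FPKM with the antimir against 71.3 with its control (-0.15). A 577-base MYC transcript carried most of both, at 21.9 FPKM with the precursor against 13.3 with its control (called higher in the authors' deposited table, q = 0.00111) and at 1.65 FPKM with the antimir against 7.30 with its control, without a call. Without it MYC was at 70.5 FPKM with the precursor against 69.3 with its control (0.00) and at 60.8 FPKM with the antimir against 64.0 with its control (-0.05). ASCL2, the transcription factor that specifies intestinal stem cells, was at 4.69 FPKM with the precursor against 3.83 with its control (0.22) and at 3.65 FPKM with the antimir against 3.52 with its control (0.08), from 1 transcript. PROX1, a transcription factor and Wnt target in colon tumours, was at 1.82 FPKM with the precursor against 0.989 with its control (0.48) and at 0.940 FPKM with the antimir against 1.42 with its control (-0.28), close to the lowest level used. Without transcripts under 1000 bases PROX1 lay at 0.25 with the precursor and -0.11 with the antimir.

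EPHB2 and EPHB3, receptors that place cells along the crypt, were low. EPHB2, with 2 seed sites, was at 1.78 FPKM with the precursor against 1.43 with its control (0.17) and at 1.80 FPKM with the antimir against 1.74 with its control (0.07). EPHB3 was at 4.68 FPKM with the precursor against 4.70 with its control (-0.03) and at 2.80 FPKM with the antimir against 3.03 with its control (-0.05). Without transcripts under 1000 bases EPHB3 lay at 0.21 with the precursor and -0.20 with the antimir. TNFRSF19, a receptor and Wnt target, was at 0.0971 FPKM or less. The 1 transcript of the 34 genes called in the antimir comparison was a 3152-base transcript of EPHB2, listed at 0 in the antimir library against 0.444 FPKM in its control (q = 0.0380 in the authors' deposited table). The authors' deposited table called it lower in the precursor comparison too, at 0.0286 FPKM with the precursor against 0.421 with its control (q = 0.00516).

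**Figure D3:**
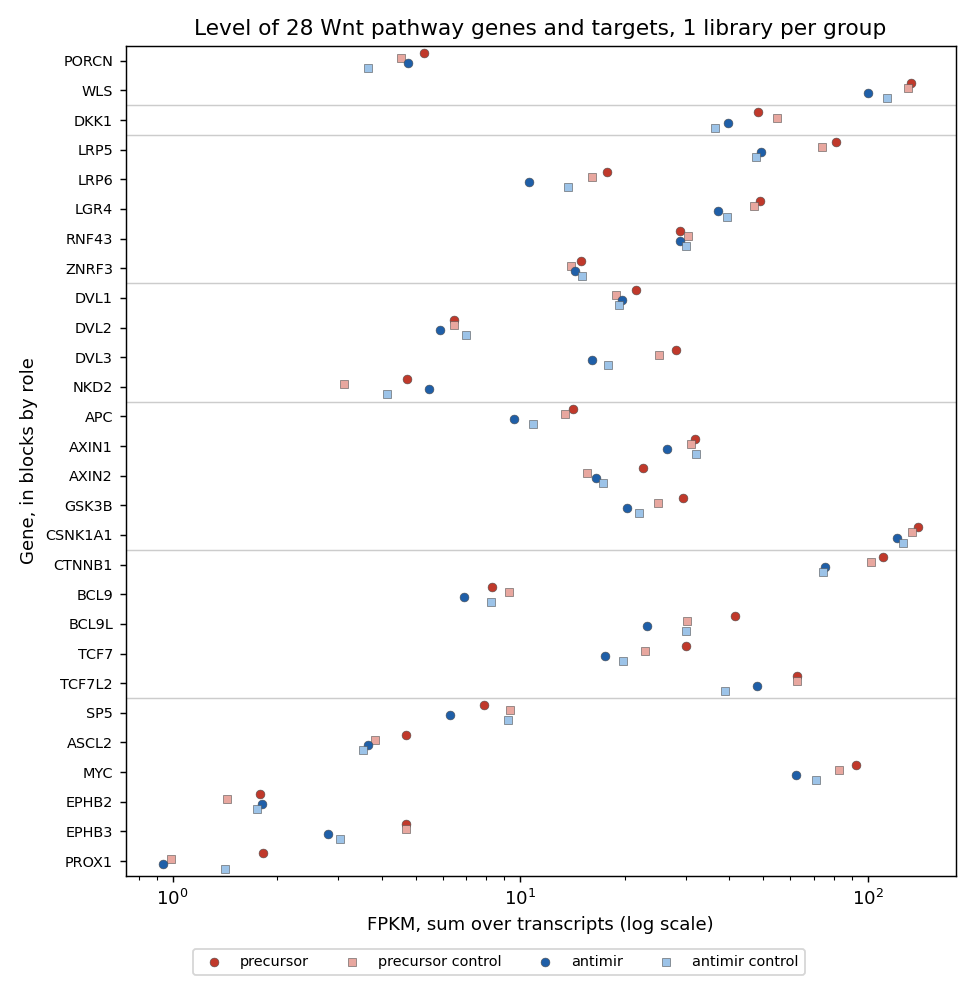
FPKM summed over transcripts (horizontal axis, log scale) of the 28 measured genes (vertical axis, in blocks by role from ligand production to targets) in the precursor library, its control, the antimir library and its control, 1 point per library. CSNK1A1, WLS and CTNNB1 stand at the right of the axis and PROX1 and EPHB2 at the left, and for most genes the treated and control points of a table lie side by side.

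Between the genes, the order of levels was similar in each table. In the precursor control the highest were CSNK1A1, WLS, CTNNB1, MYC and LRP5, at 134, 131, 102, 82.6 and 73.9 FPKM. In the antimir control the same 5 were highest, at 126, 114, 74.2, 71.3 and 47.6 FPKM. The levels of the tables are not on 1 scale, since the tables were normalised separately. Short transcripts made up more of some genes than of others. WLS had 81.2% of its FPKM in transcripts under 1000 bases in the precursor pair, and without them it was at 26.2 FPKM with the precursor and 23.4 with its control. Over all 34 genes such transcripts held 40.5% of FPKM in the precursor library against 40.6% in its control, and 28.9% in the antimir library against 29.4% in its control.

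Counted by transcript, the 34 genes had 262 entries. The authors' comparison, which sets 1 library against 1 library, tested 166 of them in the precursor pair and 130 in the antimir pair. The authors' deposited table called 17 transcripts of 11 genes higher in the precursor library and 9 transcripts of 8 genes lower. That is 10.2% and 5.42% of those tested, where 6.91% and 6.66% of all tested transcripts were called. Of these 26 calls, 6 were for transcripts listed at 0 in 1 library. In the antimir comparison 0 were called higher and 1 lower (0.769%), where 0.243% and 0.171% of all tested transcripts were called. WLS, DVL3, CTNNB1, TCF7L2 and EPHB2 had transcripts called in both directions in the precursor pair, which the sum per gene does not show.

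**Figure D4:**
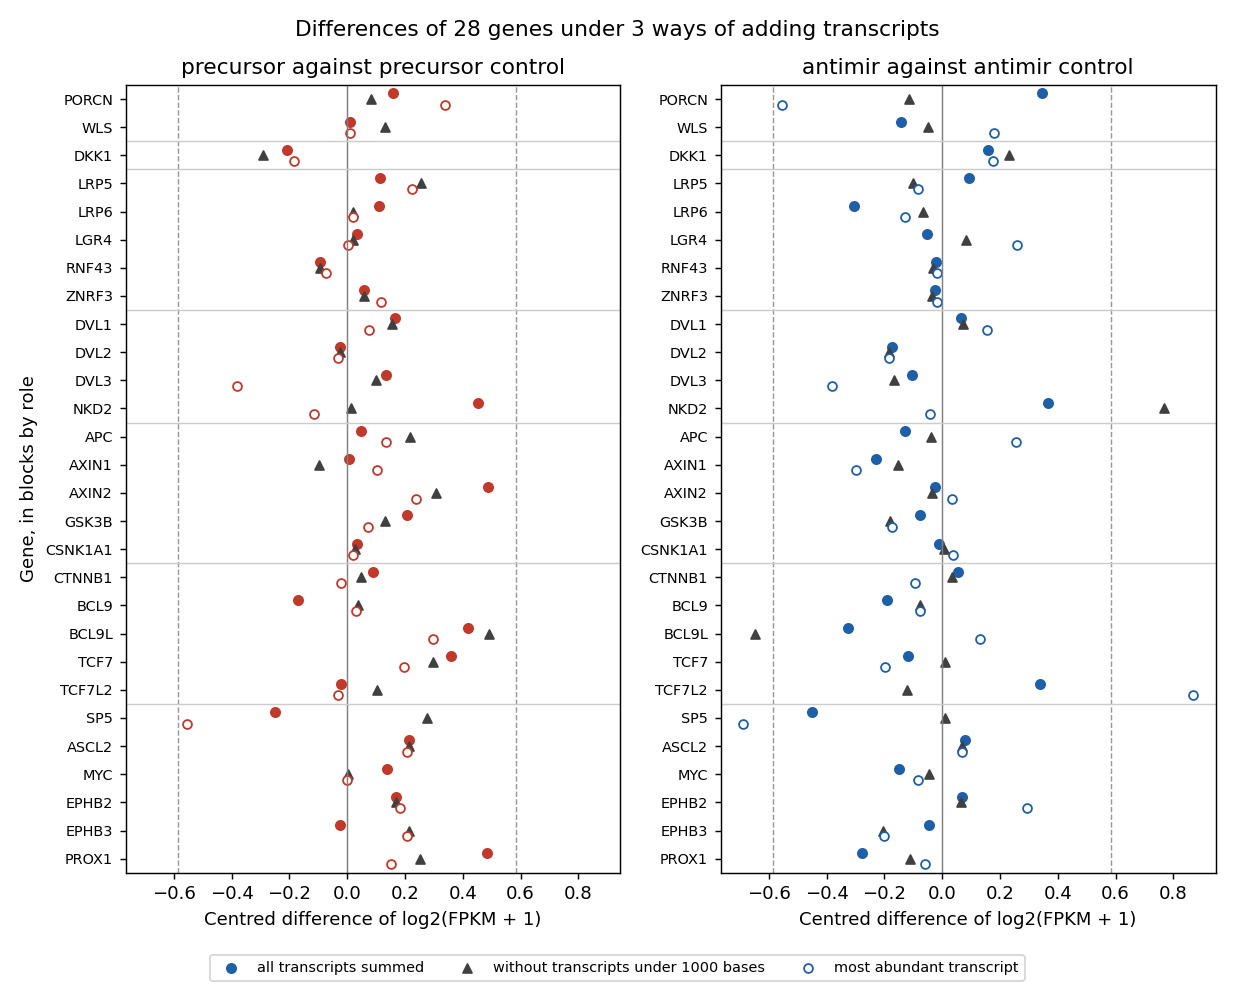
Centred difference of log2(FPKM + 1) (horizontal axis) for the 28 measured genes (vertical axis, in blocks by role), precursor against its control on the left (red) and antimir against its control on the right (blue). Filled circles sum all transcripts, triangles leave out those under 1000 bases, open circles use the most abundant transcript, and dashed lines mark 1.5-fold. The 3 symbols lie together for RNF43, DVL2 and ASCL2 and far apart for SP5, NKD2 and TCF7L2, the last of which spans -0.12 to 0.87 in the antimir comparison.

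The precursor and antimir comparisons share no library. Of the 28 genes, 14 were above 0 in the precursor library and below 0 in the antimir library (50.0%, against 29.9% of 10970 protein-coding genes measured in both). They were WLS, LRP6, LGR4, ZNRF3, DVL3, APC, AXIN1, AXIN2, GSK3B, CSNK1A1, BCL9L, TCF7, MYC and PROX1. These counts stand beside 28.7% of 13757 genes of any kind. A further 7 were above 0 in both, 5 below 0 in both, and DKK1 and TCF7L2 ran the other way, as did 27.9% of protein-coding genes and 28.4% of all genes. Without transcripts under 1000 bases the count of the first pattern was 15 of 28 (30.2% of protein-coding genes), and with the most abundant transcript alone it was 9 of 26 (28.6%).

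No group was repeated, and the nearest thing to a repeat is the 2 control libraries, which come from separately normalised tables and received each agent's own control. Set side by side as precursor control minus antimir control and centred in the same way, which removed a median of 0.35, the 28 genes differed by a median size of 0.25, with a largest value of 0.66. The median size was 0.14 between the precursor library and its control and 0.12 between the antimir library and its control. For 21 of the 28 genes in each comparison, the treated library differed from its control by less than the controls differed from each other. AXIN2 differed by the same amount in both, at 0.487 in the precursor comparison and -0.487 between the controls. The value between controls depends on the scaling and on short transcripts: it was 0.20 without centring and 0.13 without transcripts under 1000 bases.

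Genes with and without a seed site were set side by side. A site was sought in 1 transcript per gene, whereas the differences sum all its transcripts. The searched PROX1 transcript was listed at 0 in every library, and that of ZNRF3 held 0.806 of 14.9 FPKM with the precursor. With the precursor the 9 measured genes with a site had a median of 0.06, with 6 above 0 and 3 below, and the 19 without had a median of 0.11, with 15 above and 4 below. With the antimir the genes with a site had a median of -0.05 (2 above, 7 below) and those without a median of -0.11 (7 above, 12 below). Of the 4 genes with a site followed by an A, LRP5 and EPHB2 lay above 0 in both libraries, RNF43 below 0 in both, and GSK3B above 0 with the precursor and below 0 with the antimir. The LRP5 transcript with the site was at 30.1 FPKM with the antimir against 32.6 with its control, below it unlike the sum. The EPHB2 transcript with its sites was at 0.379 FPKM with the precursor against 0.490 with its control, also unlike the sum. Those of RNF43 and GSK3B had the sign of the sum in both comparisons. The groups with and without a site overlapped throughout.

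Further lists of pathway genes were counted in the same way. Beside them, 51.3% of protein-coding genes lay above 0 in the precursor library and 49.5% in the antimir library. Of 21 further Wnt targets, 14 were measured, with 11 above 0 and 3 below in the precursor library (median 0.10) and 1 above and 13 below in the antimir library (median -0.15). BMP4 was at 334 FPKM with the precursor against 263 with its control (0.32), SOX9 at 35.3 FPKM with the precursor against 29.9 with its control (0.21) and ETS2 at 166 FPKM with the precursor against 142 with its control (0.20). FOSL1 was at 3.33 FPKM with the antimir against 4.95 with its control (-0.42), PPARD at 4.35 FPKM with the antimir against 5.69 with its control (-0.29) and the protease MMP7, the 1 target above 0, at 117 FPKM with the antimir against 94.9 with its control (0.33). With the most abundant transcript alone FOSL1 lay at 0.09 and PPARD at -0.09 with the antimir. None of these targets was past 1.5-fold in either comparison.

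Of 18 nuclear partners of beta-catenin, 16 were measured, with 11 above 0 in the precursor library (median 0.03) and 3 above 0 in the antimir library (median -0.16). The co-repressor TLE3 was at 21.2 FPKM with the precursor against 14.5 with its control (0.50) and at 10.8 FPKM with the antimir against 14.3 with its control (-0.34), and its relative TLE4 was at 5.83 FPKM with the precursor against 7.86 with its control (-0.40). The histone acetyltransferase CREBBP was at 4.59 FPKM with the antimir against 6.43 with its control (-0.37), and the co-repressor CTBP2 was at 71.6 FPKM with the antimir against 53.1 with its control (0.46), or -0.15 without transcripts under 1000 bases. Without those transcripts the precursor values were 0.08 for TLE3 and -0.13 for TLE4. CHD8, a chromatin remodeller that binds beta-catenin, was at 32.9 FPKM with the precursor against 29.8 with its control (0.12, or -0.01 without those transcripts). Without them PYGO2 (-0.03), HDAC1 (-0.03) and CDC73 (-0.04) also turned below 0 with the precursor, and TLE1 (0.04) turned above 0. The other measured partners kept their sign with the precursor.

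Of 16 regulators of the destruction complex, 15 were measured in the precursor pair (6 above 0, 9 below, median -0.01) and 14 in the antimir pair (8 above, 6 below, median 0.03). BTRC, the ubiquitin ligase subunit that binds phosphorylated beta-catenin, was at 12.1 FPKM with the precursor against 38.5 in its control (-1.61). The transcript ENST00000539411.1 alone was at 4.30 FPKM with the precursor against 32.3 with its control, without a call in the authors' deposited table (q = 0.278), and was listed at 0 in both libraries of the antimir pair. Of the other BTRC transcripts, only ENST00000393441.4 was lower with the precursor, at 0.000122 FPKM against 0.488 with its control. The rest were higher or listed at 0 in both libraries. BTRC summed to 6.08 FPKM with the antimir against 5.72 with its control (0.11). FAM123B was at 1.51 FPKM with the precursor against 1.90 with its control (-0.23). CSNK1E was at 51.0 FPKM with the precursor against 57.6 with its control (-0.19). TNKS, which marks Axin for degradation, was at 3.09 FPKM with the antimir against 4.01 with its control (-0.25), FRAT1 at 1.53 FPKM with the antimir against 1.23 with its control (0.22) and CSNK1G2 at 18.5 FPKM with the antimir against 16.5 with its control (0.19). Without transcripts under 1000 bases TNKS lay at -0.03 and FRAT1 at -0.04 with the antimir, and CSNK1E at -0.02 with the precursor.

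Among R-spondins and other surface receptors, 7 of 9 measured genes were above 0 in the precursor library and 3 of 8 in the antimir library. FZD3, a Frizzled receptor, was at 0.857 FPKM with the precursor against 3.34 with its control (-1.25), and -0.15 without transcripts under 1000 bases. RSPO1, an R-spondin, was at 27.4 FPKM with the precursor against 21.1 with its control (0.34), while in the antimir pair it was at 0.0130 FPKM with the antimir and listed at 0 in its control. LGR5, the stem cell receptor for R-spondins, was at 3.81 FPKM with the precursor against 3.10 with its control (0.21). LGR5 was at 3.32 FPKM with the antimir against 4.24 with its control (-0.24), FZD5 at 3.13 FPKM with the antimir against 4.07 with its control (-0.26) and FZD3 at 0.909 FPKM with the antimir against 1.21 with its control (-0.17). Without transcripts under 1000 bases LGR5 lay at 0.08 with the precursor and -0.11 with the antimir, and FZD3 at 0.16 with the antimir. Of 11 further inhibitors, 2 were measured. KREMEN1, a receptor for DKK1, was at 9.20 FPKM with the precursor against 7.24 with its control (0.29) and at 5.18 FPKM with the antimir against 7.39 with its control (-0.40), and SOSTDC1 at 6.998 FPKM with the precursor against 7.24 with its control (-0.07) and at 7.73 FPKM with the antimir against 5.87 with its control (0.38). Without transcripts under 1000 bases KREMEN1 lay at 0.13 with the precursor and -0.05 with the antimir, and its most abundant transcript alone gave 0.01 and 0.17.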

How the data were processed

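RNA sequencing values of 4 HT29 libraries, 1 per group, were taken from 2 tables deposited by the authors, each setting 1 treated library against 1 other. The library named with a final N was taken as the control, since it was the only other library there. Per the submitters' processing notes, the tools were bcl2fastq 1.8.3, TopHat2 2.0.11, Cufflinks 2.2.0 and Cuffdiff on hg19. Their order, settings and annotation are not given in the sources used here. Deposited by the authors were FPKM values per transcript, each with a p-value and q-value per transcript that compare 2 libraries, not 2 conditions.

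FPKM was summed per gene over transcript entries whose status was not failed; no transcript of the 34 genes had failed. Genes without a transcript entry were kept by their gene entry for centring and for the background. With 1 library per group no test was run, so folds are described without a p-value. Depth is unknown, since FPKM carries no counts, and no counting interval is given. Named genes were all 34, plus the 3 measured genes of each pathway list with the largest differences per comparison. The genes and lists were chosen with earlier results of these data known. Transcript lengths, types and 3' UTRs came from GENCODE 29 (GRCh38), matched by identifier; 232 of 262 transcripts matched, and those without a match were kept among the longer ones. The calculation was tested on simulated data, with large changes planted in well-expressed genes after summing. That simulation does not cover small differences, low genes or the way transcripts are summed. It was done with Python 3.11.15, pandas 2.3.3 and numpy 2.4.6.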

Additional observations from a re-analysis of the deposited data

How the results depend on the processing

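With 1 library per group, a median was counted as moved when it shifted by 0.05 or more on the log2 scale or changed sign. Under each alternative the precursor median stayed above 0 and the antimir median below 0, with most genes above 0 in the precursor comparison and most below 0 in the antimir comparison. The precursor median was 0.048 over the 22 genes that averaged 5 FPKM or more and 0.026 with the most abundant isoform only. Among those 22, 5 genes lay above 0 in the antimir comparison. Past 1.5-fold, 1 gene (PROX1) was higher in the precursor library with a pseudocount of 0.1. In the antimir library 1 was higher (TCF7L2) and 1 lower (SP5) with the most abundant isoform only, and 1 higher (NKD2) and 1 lower (BCL9L) when transcripts under 1000 bases were left out, an alternative chosen after seeing the data. That last setting, which kept transcripts of unknown length, left 4 genes below 0 in the precursor comparison. At a step of 0.32 on the log2 scale, 5 genes were higher in the precursor library, and 3 higher and 2 lower in the antimir library. Of these, BCL9L alone stayed past the step with the precursor when transcripts under 1000 bases were left out. NKD2 and BCL9L did so with the antimir. The median size of the difference between the controls was 0.17 with no filter, 0.33 with the most abundant isoform only, 0.20 without centring and 0.13 without short transcripts. Of the 28 genes, 18 kept their sign under all alternatives in the precursor comparison and 14 in the antimir comparison. The cause was not tested. No paired analysis was possible because each group holds 1 library. Depth is unknown and limits how far low genes can be read.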
